A study of Homo sapiens with 6 samples.

Results

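The promoters of the genes of the mitochondrial ribosome (MRP genes) were examined in OCI-AML3 cells, an established acute myeloid leukemia (AML) line that carries mutant NPM1 (mtNPM1). Members were all autosomal protein-coding genes whose symbol is MRPL or MRPS followed by a number, which gave 78 of 18978 autosomal protein-coding genes. Of these, 49 carry MRPL symbols and 29 carry MRPS symbols. Because MRPS30 and MRPS18A sit in the large subunit of the assembled particle, the members were counted as 51 large and 27 small subunit genes. MRPS36 is kept by its symbol, although its product is known as a component of the 2-oxoglutarate dehydrogenase complex.

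Mitochondria translate a small set of membrane proteins of the respiratory chain on ribosomes of their own. The RNA of these ribosomes is encoded in mitochondrial DNA, whereas all of their proteins are encoded in the nucleus, made in the cytosol and imported. The MRP genes are expressed in nearly all cells, mostly from GC-rich promoters without a TATA box. H3K4me3 marks the first nucleosomes downstream of active starts, and H3K27Ac marks active promoters as well as enhancers.

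Chromatin came from cells given a guide RNA for the knockout of mtNPM1 (sgNpm1A) or a control guide (sgNeg), and the study asked how the knockout affects active enhancers and promoters. The labels give 3 days of culture, while the text of the study gives a longer time. The 6 samples hold 1 library of each mark and 1 input for each guide RNA. The 4 peak lists were analysed, and the 2 inputs were not used here. By the labels, all groups share the line and the transfection. The names of the deposited lists, however, carry the tag OCI2 for H3K27Ac and OCI3 for H3K4me3. The study also used OCI-AML2, a line with wild-type NPM1, and whether the H3K27Ac libraries come from the labelled line was not settled here. Chromatin was crosslinked, sonicated, precipitated with an antibody to the mark and tagmented on the beads. With 1 library per group there is no replicate error, so all values are descriptions of these libraries and no p-value is given. Fewer marked cells and less mark per cell cannot be told apart.

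A promoter was taken as 1 kb to either side of any annotated transcript start. For each gene the promoter peak of highest fold enrichment was kept, where fold enrichment is the signal of the peak over the background expected by the peak caller. Since this value is scaled within each library, the peak was also ranked by its percentile, the share of peaks in the same list whose fold enrichment is not above it. A gene without a promoter peak was given 0. H3K27Ac positions are on GRCh37 (hg19) and H3K4me3 positions on GRCh38 (hg38), and the 2 marks were never compared by position.

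The sgNpm1A lists stood apart from the sgNeg lists before any gene was named. They hold 317059 peaks for H3K27Ac and 106641 for H3K4me3, against 327715 and 353628 in sgNeg. In sgNpm1A, peaks covered the canonical start, that of the main transcript of each gene, in 7.16% of the other 18900 protein-coding genes for H3K27Ac and 1.81% for H3K4me3. These shares were below the mean shares 10 to 20 kb away, 10.9% and 2.94%. In sgNeg the H3K27Ac share at the start was 54.4%, against 14.8% at 10 to 20 kb. The sgNeg lists marked a myeloid cell, since 8 of 8 myeloid genes were at or above the 90th percentile for H3K27Ac, and 0 of 10 genes of other cell types were. For H3K4me3 these counts were 5 of 8 and 1 of 10, and LYZ had no H3K4me3 promoter peak. In sgNpm1A, 0 of 8 myeloid genes reached the 90th percentile for either mark. Of the genes of other cell types, 1 of 10 did for each mark, PAX5 (98.08) for H3K27Ac and CD3D (94.24) for H3K4me3. The promoter of NPM1, the targeted gene, held peaks of 7.02-fold for H3K27Ac and 10.6-fold for H3K4me3 in sgNeg and none in sgNpm1A. A promoter mark does not check a guide RNA against the coding sequence.

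Promoter sequences from RefSeq (GRCh38.p14) were matched for 70 of the 78 members, and 8 members were not matched. The following 250 bases end just before the RefSeq start and read 5′ to 3′ on the strand of the gene. Capitals mark the motifs searched, which were those of NRF1 (GCGCATGC), GABP/ETS (CCGGAAGT), YY1 (AAGATGGC) and SP1 (GGGGCGGG), the E-box (CACGTG) and the TATA box (TATAAA), each on either strand. MRPS30 and MRPL36, on chromosome 5, had the highest promoter peaks of the members for H3K27Ac and H3K4me3, respectively. MRPS30 lies at chr5:44808697-44808946 on the plus strand and MRPL36 at chr5:1799838-1800087 on the minus strand.
MRPS30: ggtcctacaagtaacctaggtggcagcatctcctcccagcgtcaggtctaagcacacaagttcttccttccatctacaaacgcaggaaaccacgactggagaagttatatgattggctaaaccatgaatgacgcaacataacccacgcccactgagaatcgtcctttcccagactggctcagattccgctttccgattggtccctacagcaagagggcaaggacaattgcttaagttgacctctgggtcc
MRPL36: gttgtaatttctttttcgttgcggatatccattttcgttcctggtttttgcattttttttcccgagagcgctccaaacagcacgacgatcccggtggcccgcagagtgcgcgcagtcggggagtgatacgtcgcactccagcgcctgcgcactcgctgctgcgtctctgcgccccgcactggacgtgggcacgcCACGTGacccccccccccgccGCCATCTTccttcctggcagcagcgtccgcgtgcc

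MRPS34, at chr16:1773135-1773384 on the minus strand, had the widest H3K4me3 promoter peak. MRPL38, at chr17:75904885-75905134 on the minus strand, had the highest of the few H3K4me3 peaks in sgNpm1A. MRPL52, at chr14:22829637-22829886 on the plus strand, holds sites of NRF1, GABP/ETS and YY1 in its full window, and its NRF1 site and a pair of YY1 sites lie in the stretch shown.
MRPS34: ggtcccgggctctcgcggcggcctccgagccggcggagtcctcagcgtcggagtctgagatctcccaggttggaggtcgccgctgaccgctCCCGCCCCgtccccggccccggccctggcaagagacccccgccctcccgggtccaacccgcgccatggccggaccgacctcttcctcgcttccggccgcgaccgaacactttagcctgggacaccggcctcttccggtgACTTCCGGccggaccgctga
MRPL38: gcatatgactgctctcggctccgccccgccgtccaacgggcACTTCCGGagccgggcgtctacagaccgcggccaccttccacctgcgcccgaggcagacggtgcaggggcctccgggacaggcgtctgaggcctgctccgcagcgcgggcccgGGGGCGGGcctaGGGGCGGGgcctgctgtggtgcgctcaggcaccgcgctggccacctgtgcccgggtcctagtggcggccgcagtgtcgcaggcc
MRPL52: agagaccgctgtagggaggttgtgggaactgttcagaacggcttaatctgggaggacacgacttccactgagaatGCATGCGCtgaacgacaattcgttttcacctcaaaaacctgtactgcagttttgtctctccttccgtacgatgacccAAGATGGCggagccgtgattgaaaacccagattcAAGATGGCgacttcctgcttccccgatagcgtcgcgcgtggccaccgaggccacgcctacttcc

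The 3 members without a sgNeg H3K4me3 promoter peak are shown for comparison. All lie on the plus strand, MRPL45 at chr17:38296918-38297167, MRPL48 at chr11:73787624-73787873 and MRPL54 at chr19:3762432-3762681. The GC content of the 300-base window was 64% in MRPL45, 43.3% in MRPL48 and 47.3% in MRPL54, beside a median of 60.3% in members and 63% in all promoters.
MRPL45: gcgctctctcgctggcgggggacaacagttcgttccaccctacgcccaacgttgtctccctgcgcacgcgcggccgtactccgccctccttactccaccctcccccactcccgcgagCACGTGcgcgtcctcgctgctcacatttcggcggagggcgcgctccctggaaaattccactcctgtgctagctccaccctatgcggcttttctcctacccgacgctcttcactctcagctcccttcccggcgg
MRPL48: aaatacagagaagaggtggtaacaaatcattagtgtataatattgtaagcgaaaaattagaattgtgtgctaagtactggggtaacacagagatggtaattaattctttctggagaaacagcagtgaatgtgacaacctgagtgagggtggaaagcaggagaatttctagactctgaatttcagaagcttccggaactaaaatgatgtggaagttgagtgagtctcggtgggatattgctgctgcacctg
MRPL54: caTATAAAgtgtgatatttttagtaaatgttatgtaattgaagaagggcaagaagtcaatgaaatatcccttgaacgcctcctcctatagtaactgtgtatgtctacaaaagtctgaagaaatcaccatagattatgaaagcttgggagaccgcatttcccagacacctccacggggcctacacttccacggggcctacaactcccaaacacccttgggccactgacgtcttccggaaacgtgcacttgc

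Of these motifs, the one whose share differed most between members and all promoters was that of YY1, a zinc finger factor. It was present in 20 of 70 members (28.6%) and in 590 of 15100 autosomal protein-coding promoters (3.91%), over 250 bases before to 50 after the start. In 15 of the 20 members a site lay after the start, and in 16 it read on the strand of the gene, against 63.4% and 73.9% of all promoters that hold it. The sites of 5 members named in these results are shown with 8 bases on either side, each on the strand that reads the motif. Position 1 is the first transcribed base. The site of MRPL36, at chr5:1799857-1799880, lies before the start at position -35 and reads against the strand of the gene. The other 4 begin at positions 14, 20, 7 and 14 and read on the strand of the gene, at chr5:44808952-44808975, chr17:75261890-75261913, chr17:75904863-75904886 and chr17:38297173-38297196.
MRPL36: caggaaggAAGATGGCggcggggg
MRPS30: cgcgggcaAAGATGGCggcggcca
MRPS7: ggccagccAAGATGGCtgcccccg
MRPL38: ccggagggAAGATGGCggcgccct
MRPL45: gcgggaacAAGATGGCagccccca

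The GABP/ETS motif was found in 11 members (15.7%, against 6.3% of all promoters) and that of NRF1, a regulator of nuclear genes for mitochondria, in 6 (8.57% against 4.19%). SP1 motifs were in 28 members (40% against 31.7%), E-boxes in 7 (10% against 8.77%) and TATA boxes in 3 (4.29% against 9.71%). The observed over expected CpG ratio had a median of 0.873 in members and 0.767 in all promoters. Such matches are descriptions of the sequence and not of binding. The members with and without a YY1 motif had close sgNeg levels, with median H3K27Ac percentiles of 98.5 and 97.7 and median H3K4me3 percentiles of 98.1 and 98.5.

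In sgNeg, nearly all MRP promoters were occupied by both marks. An H3K27Ac promoter peak was present at 77 of 78 members (98.7%, Wilson 95% interval 93.1 to 99.8), against 81.9% of all genes tested. An H3K4me3 promoter peak was present at 75 members (96.2%, 89.3 to 98.7), against 78.1% of all genes. These intervals cover counting error over genes only. The shares were 97.5% and 100% in cytosolic ribosomal protein genes and 100% and 100% in genes of respiratory complex I. Windows moved 20 kb upstream or downstream of the starts held an H3K27Ac peak in 60.3% and 64.1% of members and an H3K4me3 peak in 52.6% and 50%, so the share at the promoter was above that of its surroundings for both marks. Over all genes these windows held an H3K27Ac peak in 62.1% and 62.2% and an H3K4me3 peak in 52.1% and 51.1%.

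In sgNpm1A, an H3K27Ac promoter peak was present at 34 of 78 members (43.6%, 33.1 to 54.6), where 60.1% of all genes had one. An H3K4me3 promoter peak was present at 6 (7.69%, 3.57 to 15.8), where 25.8% of all genes had one. The windows moved by 20 kb held an H3K27Ac peak in 52.6% and 59% of members and an H3K4me3 peak in 12.8% and 23.1%. MRP promoters were thus no longer above their surroundings in either sgNpm1A list. Over all genes the moved windows held an H3K27Ac peak in 58.1% and 57.8% and an H3K4me3 peak in 24.7% and 24.8%. The promoter share of all genes was thus close to its surroundings as well. The span between the outermost starts of a gene had a median of 1742 bp in members and 10168 bp in other genes. The median number of distinct starts was 5 in both groups. The part of this span in the shares was not tested. Around the canonical start alone, an sgNpm1A H3K27Ac peak was present at 25 members (32.1%) and at 34.1% of all genes. For H3K4me3 it was present at 1 member (1.28%) and at 7.98% of all genes.

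**Figure D1:**
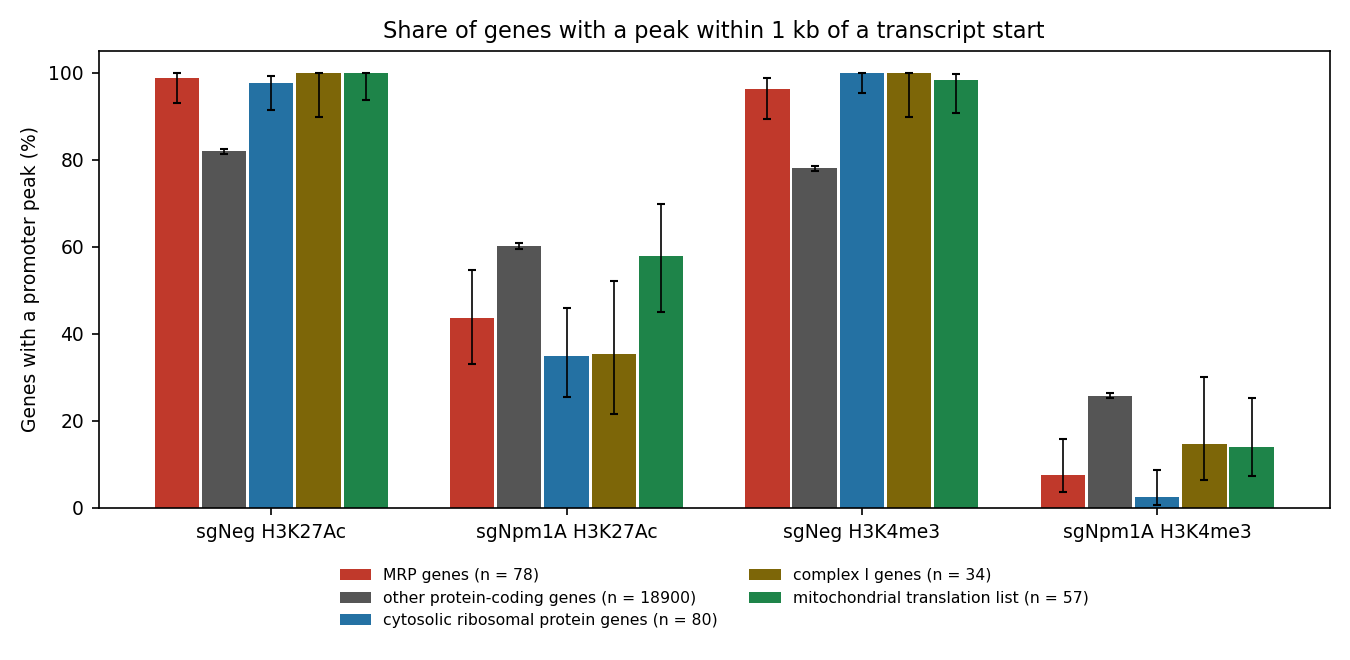
Share of genes (y axis, percent) with a peak within 1 kb of any transcript start in each list, for MRP genes and 4 groups of genes set beside them; bars start at 0 and lines are Wilson 95% intervals over genes. MRP genes stand at 98.7% and 96.2% in the sgNeg lists, above other protein-coding genes, and at 43.6% and 7.69% in the sgNpm1A lists, below them.

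The coverage of peaks around the canonical start showed where the marks lay. In sgNeg, H3K27Ac peaks covered the start itself in 74 of 78 members (94.9%) and reached 97.4% at 200 bp downstream. H3K4me3 peaks covered the start in 12 members (15.4%) and reached 93.6% at 300 bp downstream. The H3K4me3 summit lay a median of 333 bp downstream of the start in members (quartiles 233 and 435) and 339 bp in other genes (152 and 524). The summit lay downstream in 61 of 75 members (81.3%) and in 79.8% of other genes.

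In sgNpm1A the profile was inverted. H3K27Ac peaks covered the start in 1 of 78 members (1.28%), against a mean of 13.2% at 10 to 20 kb, and H3K4me3 peaks covered it in 0 of 78, against 4.06%. The cytosolic ribosomal protein genes gave 2.5% and 0%, against means of 12% and 2.49% at 10 to 20 kb. Of the 34 H3K27Ac promoter peaks in sgNpm1A, 1 covered the canonical start, 21 lay within 1 kb of it and 12 belonged to a start further away. Of the 6 H3K4me3 peaks, 0 covered it, 1 lay within 1 kb and 5 lay further away.

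**Figure D2:**
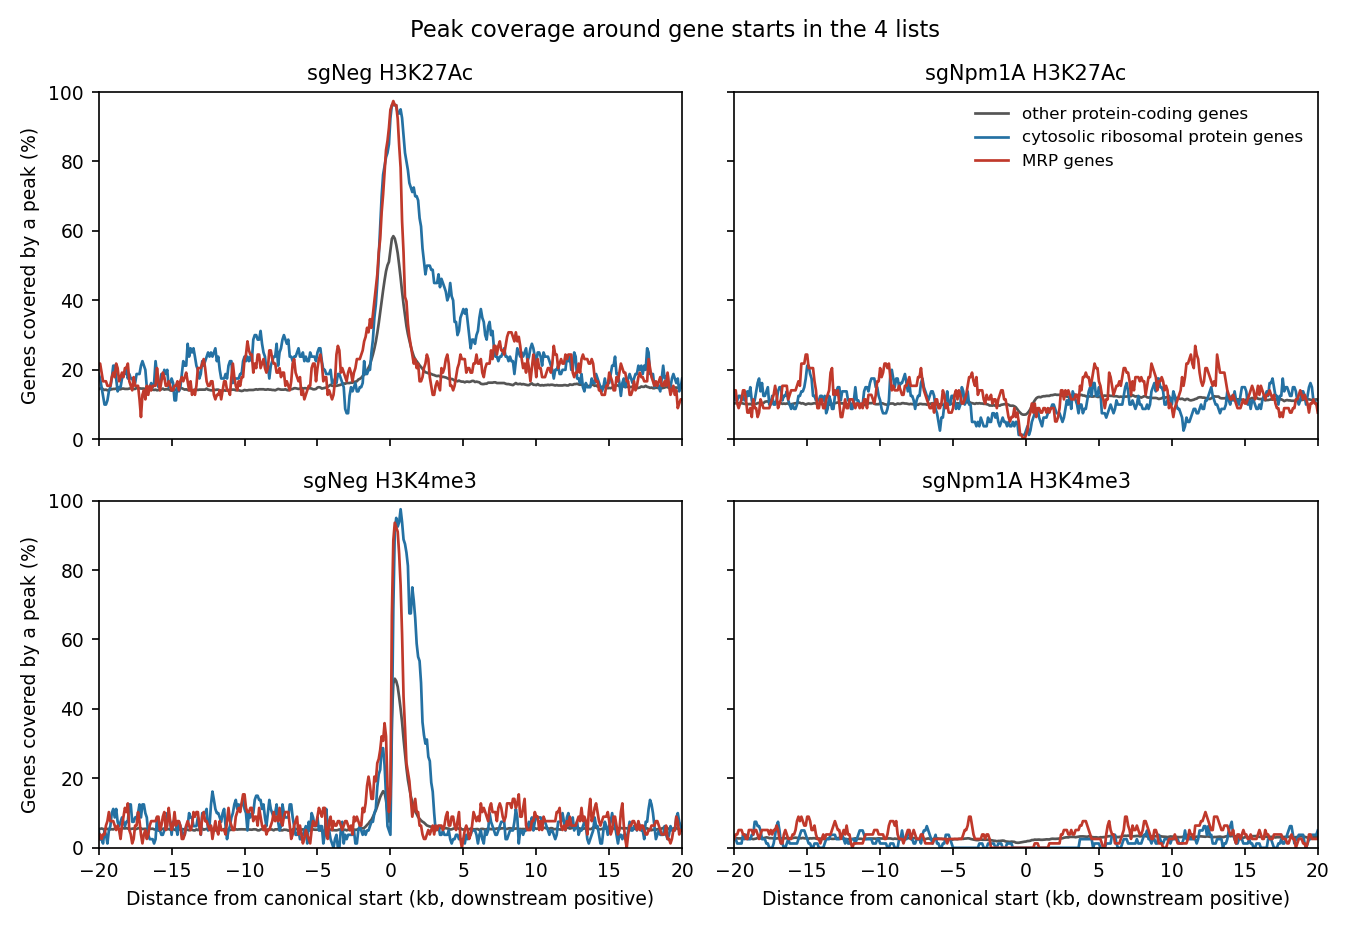
Share of genes covered by a peak (y axis, percent) by distance from the canonical start (x axis, kb, downstream positive) in the 4 lists, for MRP genes, cytosolic ribosomal protein genes and other protein-coding genes. In sgNeg the MRP line peaks at 97.4% for H3K27Ac and 93.6% for H3K4me3, and in sgNpm1A it dips at the start, to 1.28% and 0%.

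The members were also high in the sgNeg lists. The median percentile was 97.9 for H3K27Ac and 98.5 for H3K4me3, against 93.5 and 92.4 in other genes. It was 98.5 and 99.2 in cytosolic ribosomal protein genes and 98.4 and 98.3 in complex I genes. For H3K27Ac, 73 members were at or above the 90th percentile (54.7% of all genes were) and 15 (19.2%) were at or above the 99th (16.2% of all genes). For H3K4me3, 73 members were again at or above the 90th percentile (54.8% of all genes), and 30 (38.5%) were at or above the 99th (18.9% of all genes). At the very top of the lists the share of members was thus close to the background for H3K27Ac and above it for H3K4me3. With a q-value under 1e-05, 51 members kept an H3K27Ac peak (37.2% of all genes) and 75 kept an H3K4me3 peak (60.5% of all genes). In sgNpm1A no member passed that limit for either mark, where 0.933% and 5.59% of all genes did.

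Promoter peaks of the members were wider than those of other genes in sgNeg. The median H3K27Ac width was 1930 bp (quartiles 1379 and 3008) in members and 1524 bp in other genes, and the median H3K4me3 width was 832 bp (618 and 1146) and 652 bp. Cytosolic ribosomal protein genes had wider peaks still, with medians of 3051 and 1338 bp. Complex I genes, which encode subunits of the first respiratory chain enzyme, were close to the members at 1928 and 908 bp. In sgNpm1A the widths of members and other genes were close, with medians of 558 and 566 bp for H3K27Ac and 423 and 476 bp for H3K4me3.

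Among the large subunit genes, MRPS30 and MRPL36 led both marks in sgNeg. MRPS30, a component of the large subunit despite its symbol, had an H3K27Ac peak of 8.37-fold and 1850 bp and an H3K4me3 peak of 14.35-fold and 1695 bp in sgNeg. In sgNpm1A it had an H3K27Ac peak of 3.17-fold and 427 bp and no H3K4me3 peak. MRPL36, a very small protein of the large subunit core, had peaks of 7.88-fold (3335 bp) for H3K27Ac and 15.81-fold (887 bp) for H3K4me3 in sgNeg. Its sgNpm1A H3K27Ac peak was 2.70-fold and 191 bp wide, near the lowest fold enrichment in that list (2.66), and it had no H3K4me3 peak. Both genes thus went from the top percentile of the sgNeg lists to the 74.55th and 11.58th percentile of the sgNpm1A H3K27Ac list.

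MRPL12 encodes the flexible stalk protein that contacts translation factors, and it also binds the mitochondrial RNA polymerase. It had a 7.18-fold H3K27Ac peak of 4386 bp and an 11.65-fold H3K4me3 peak of 1384 bp in sgNeg, and a 2.78-fold H3K27Ac peak of 938 bp and no H3K4me3 peak in sgNpm1A. MRPL40 stood at 7.46-fold (3733 bp) and 13.94-fold (1649 bp) in sgNeg and had no peak for either mark in sgNpm1A. MRPL18, a protein of the central protuberance, followed the same course, with 6.79-fold and 13.94-fold peaks in sgNeg and none in sgNpm1A. These 3 genes, MRPS30, MRPL36 and MRPS7 were among the 10 highest members for both marks in sgNeg. The sgNeg H3K4me3 summits of MRPL40, MRPL18 and MRPS7 lay upstream, at -1261, -1302 and -581 bp from the canonical start. These summits lay past the starts of opposite-strand genes, HIRA, TCP1 and GGA3, which are 812, 865 and 273 bp upstream in GRCh37. Which gene of each pair the height belongs to was not tested.

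MRPL24 had the widest H3K27Ac peak of the members, 15142 bp at 7.53-fold, but an H3K4me3 peak of middle height, 7.49-fold and 907 bp. In sgNpm1A it held an H3K27Ac peak of 3.39-fold and 2830 bp, which lay 2535 bp from its canonical start. MRPL55 had the second widest, 9917 bp, at 3.63-fold, with a 12.27-fold H3K4me3 peak. The fold enrichment of this wide MRPL55 peak was thus below the member median of 4.76. For H3K27Ac this value is a mean over the region, so the height of its summit is not known.

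MRPL3, a core protein near the peptidyl transferase centre, had peaks of 4.38-fold and 6.45-fold in sgNeg and none in sgNpm1A. MRPL44, which carries a ribonuclease-like fold, had peaks of 5.58-fold and 9.36-fold in sgNeg and had a 2.70-fold H3K27Ac peak of 746 bp in sgNpm1A. MRPL58, a peptidyl-tRNA hydrolase built into the large subunit that rescues stalled ribosomes, had peaks of 3.63-fold and 9.98-fold in sgNeg. In sgNpm1A it held a 3.47-fold H3K27Ac peak, 6046 bp from its canonical start, and a 3.31-fold H3K4me3 peak, 7775 bp from it.

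Among the small subunit genes, MRPS7, a protein of the head of the subunit, was the highest for H3K27Ac, at 6.71-fold and 4964 bp. Its H3K4me3 peak was 12.06-fold and 2811 bp, the third widest of the members. MRPL43, with 3270 bp at 9.15-fold, was wider, and MRPL44 and MRPL21 followed with 1843 and 1794 bp. MRPS18B was among the 5 widest for H3K27Ac, with 4591 bp. MRPS34 had the widest H3K4me3 peak, 4643 bp at 12.69-fold, under an H3K27Ac peak of 8695 bp at 5.88-fold, and neither mark in sgNpm1A. MRPS12, the protein of the decoding centre, had peaks of 4.70-fold and 9.36-fold in sgNeg and a 2.66-fold H3K27Ac peak alone in sgNpm1A. MRPS16 had 5.78-fold and 5.41-fold peaks in sgNeg and none in sgNpm1A. All small and large subunit genes with a sgNeg peak were lower in sgNpm1A by percentile.

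**Figure D3:**
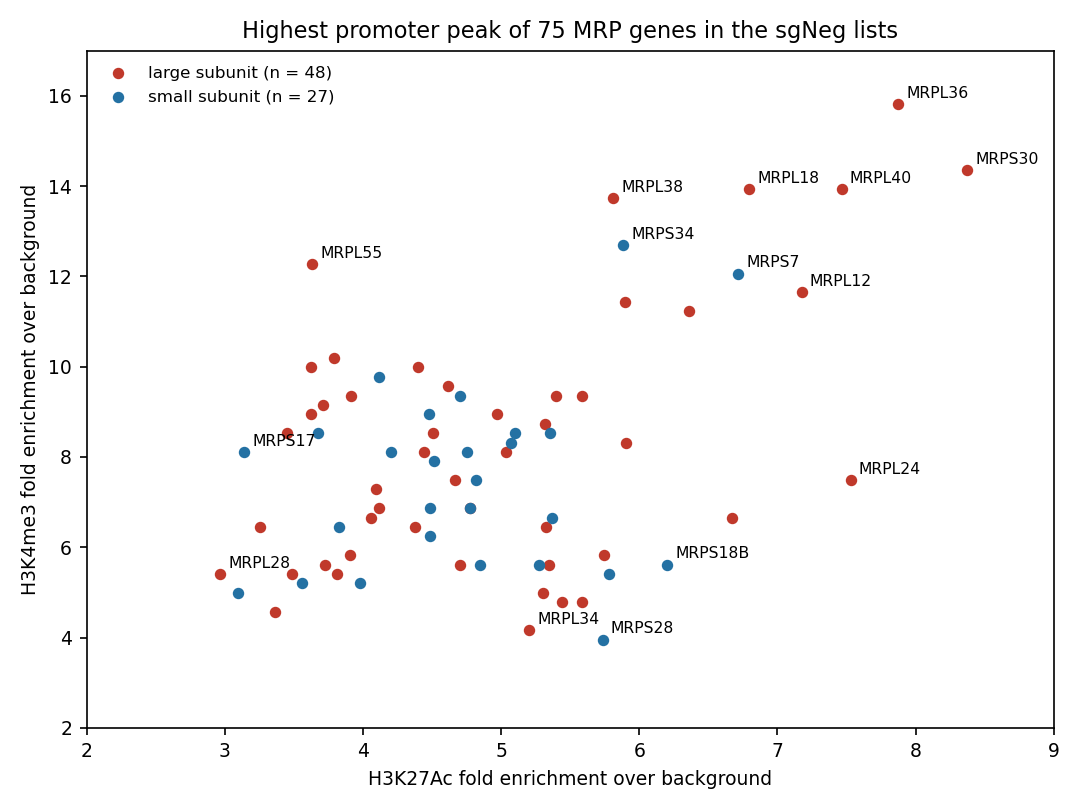
Fold enrichment of the highest H3K27Ac (x axis) and H3K4me3 (y axis) promoter peak in sgNeg for the 75 MRP genes with both, colored by subunit; each point is 1 gene. MRPS30 and MRPL36 lie at the upper right, MRPL24 is high for H3K27Ac alone and MRPL55 for H3K4me3 alone.

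The order of the members by one mark was only loosely that by the other. Over the 75 members with both peaks, Spearman's rho between the H3K27Ac and H3K4me3 percentiles was 0.258, and it was 0.653 over 13863 other genes with both peaks, whose percentiles span a wider range. The widths had a rho of 0.512 over the same members. Genes of 1 library share its depth and base composition, so these values are descriptions.

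The lowest H3K27Ac members in sgNeg were MRPL28 (2.96-fold), MRPS31 (3.10-fold), MRPS17 (3.14-fold), MRPL11 (3.25-fold) and MRPL22 (3.37-fold). For H3K4me3 they were MRPS28 (3.95-fold), MRPL34 (4.16-fold), MRPL22 (4.58-fold), MRPL33 and MRPL53 (both 4.78-fold). MRPL22, a protein of the exit tunnel wall, was the only gene among the 5 lowest for both marks. MRPS17 shows the contrast between marks, since its H3K4me3 peak of 8.11-fold was at the 98.84th percentile. MRPS28 shows the reverse, since its H3K27Ac peak of 5.73-fold was at the 98.99th percentile.

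MRPL45 was the only member without a promoter peak in all 4 lists. Its product lines the exit of the large subunit and contacts the inner membrane. The nearest peaks lay 27964 bp from its canonical start in the sgNeg H3K27Ac list and 32965 bp in the sgNeg H3K4me3 list. The 1 kb on either side of this start has a copy elsewhere in GRCh37, over 100% of its length at 97.2% identity. The other 77 members have no copy at 95% identity or more. The part of this copy in the missing peak was not tested.

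MRPL48 and MRPL54 lacked H3K4me3 but not H3K27Ac in sgNeg. MRPL48, a protein of the central protuberance, had a 4.74-fold H3K27Ac peak of 1930 bp that covered its start, and its nearest H3K4me3 peak was 26841 bp away. MRPL54 had a 5.22-fold H3K27Ac peak of 2508 bp, and its nearest H3K4me3 peak was 1012 bp away, just outside the 1 kb window. Neither had a peak in the sgNpm1A lists.

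Between the guide RNAs, 43 of 78 members (55.1%) had an H3K27Ac promoter peak in sgNeg and none in sgNpm1A, where 26.9% of all genes did. For H3K4me3, 69 members (88.5%) did, where 53.9% of all genes did. The reverse, a peak in sgNpm1A alone, was found at no member for either mark, where 5.07% and 1.52% of all genes had it. All 77 members with a sgNeg H3K27Ac peak had a lower percentile in sgNpm1A (82.6% of all such genes), as had all 75 with a sgNeg H3K4me3 peak (93.4% of all such genes). These ranks come from lists of different length, and 43 of the 77 and 69 of the 75 had no sgNpm1A peak and were given 0. The missing peaks were shared with other genes, and the share of members was above the background for both marks. This was not particular to members. For H3K27Ac and H3K4me3 the shares were 62.5% and 97.5% in cytosolic ribosomal protein genes and 64.7% and 85.3% in complex I genes. They were 42.1% and 84.2% in the 57 genes of mitochondrial translation described below.

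Since MRP promoters started high, they were set beside other genes at or above the 90th percentile in sgNeg. An sgNpm1A H3K27Ac peak was present at 32 of 73 such members (43.8%, 33 to 55.2) and at 62.9% of 10300 other genes. For H3K4me3 it was present at 6 of 73 (8.22%, 3.82 to 16.8) and at 28.6% of 10329 other genes. Around canonical starts alone, 25 of 77 members with a sgNeg H3K27Ac peak had an sgNpm1A peak (32.5%, 23.1 to 43.5), beside 38.5% of other genes. The H3K27Ac difference was thus within the counting interval when a single start per gene was used. For H3K4me3 the counts were 1 of 75 (1.33%, 0.236 to 7.17) and 9.1%.

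**Figure D4:**
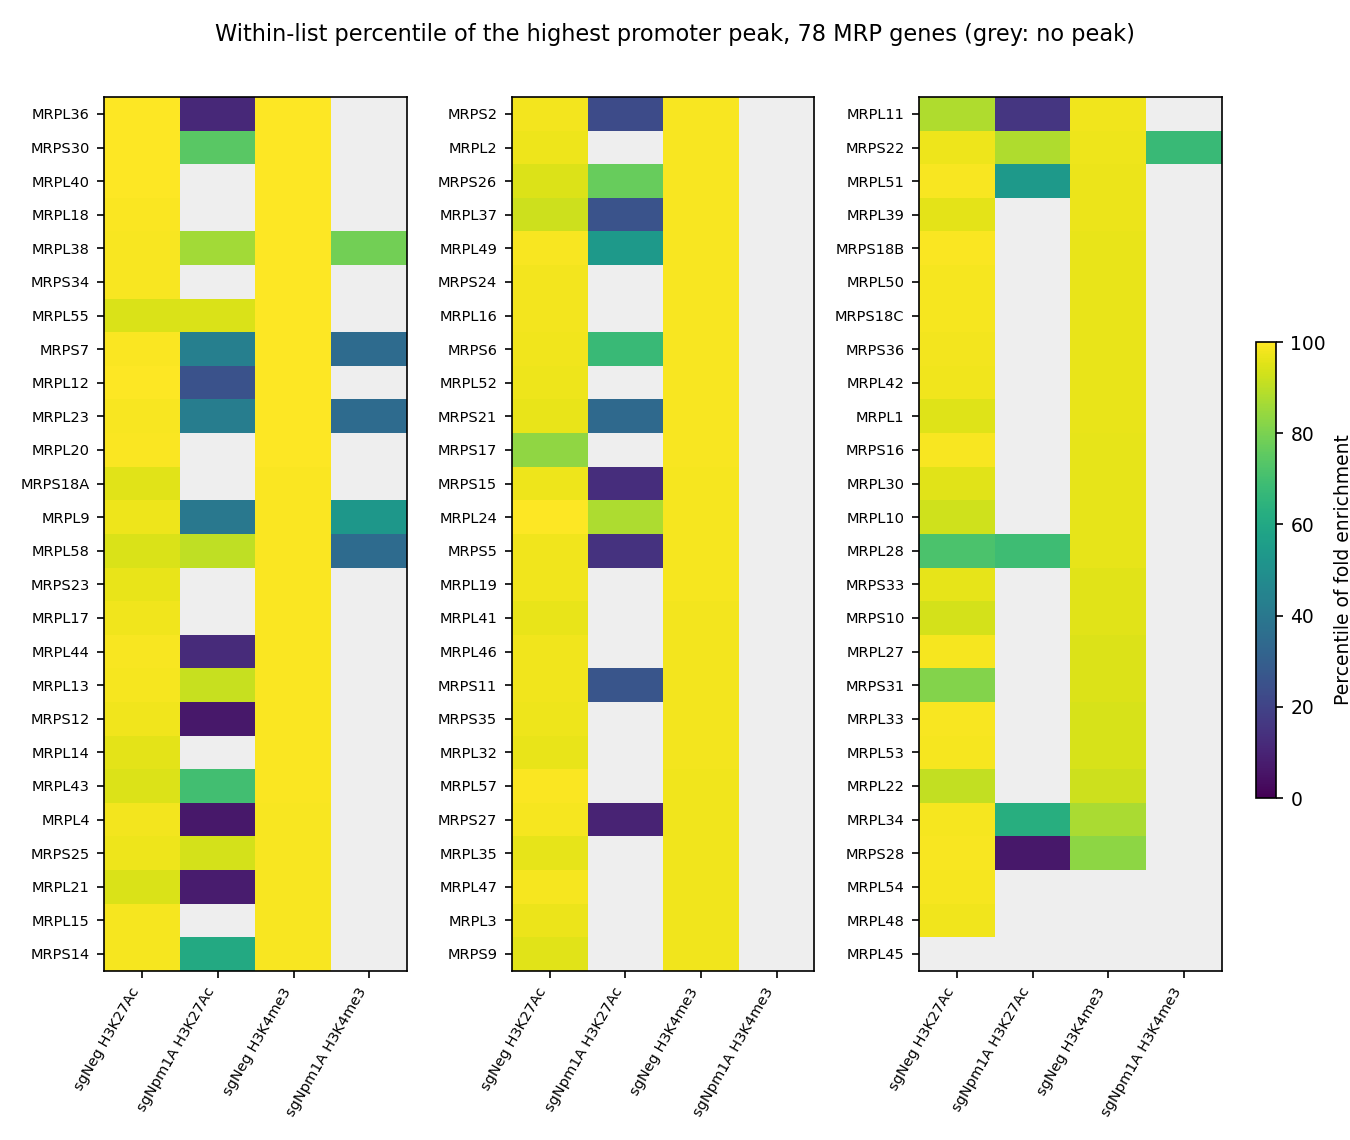
Within-list percentile of the highest promoter peak (color scale, 0 to 100) of each of the 78 MRP genes in the 4 lists, ordered by the sgNeg H3K4me3 percentile; grey is no peak. Both sgNeg columns are near the top of the scale in almost every gene, the sgNpm1A H3K27Ac column is colored in 34 genes and the sgNpm1A H3K4me3 column in 6.

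At the 34 members with an H3K27Ac promoter peak in both lists, the sgNpm1A peak was narrower, with a median width ratio of 0.234. It was wider at 4, MRPL11, MRPL34, MRPL38 and MRPS14, and of higher fold enrichment at 2, MRPL28 and MRPL55. At the 4 with a wider peak, the sgNpm1A peak lay 2392, 3168, 4587 and 8065 bp from the canonical start. It did not overlap the sgNeg peak there, so these are different peaks and not widened ones. The peaks of both lists overlapped at 20 of the 34. Spearman's rho between the percentiles of both lists was -0.0851 over these members. Over all 10448 genes with both peaks, the median width ratio was 0.438, so narrower sgNpm1A peaks were not particular to members. Among those 10448 genes the sgNpm1A peak was wider at 3021 and of higher fold enrichment at 3388, and it overlapped the sgNeg peak at 3961.

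**Figure D5:**
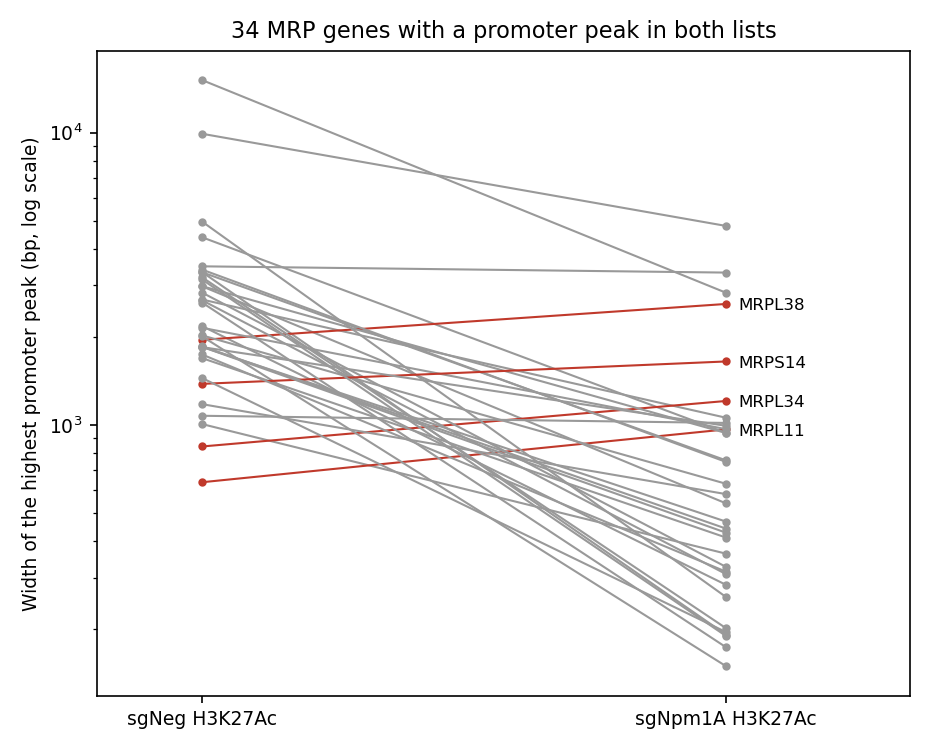
Width of the highest H3K27Ac promoter peak (y axis, bp, log scale) in sgNeg and sgNpm1A for the 34 MRP genes with a peak in both lists; each line is 1 gene. Red lines mark the 4 genes with a wider peak in sgNpm1A, at which the peaks of both lists do not overlap.

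The highest sgNpm1A H3K27Ac members were MRPL55 (3.64-fold, 94.23rd percentile), MRPS25 (3.60-fold), MRPL13 (3.52-fold), MRPL58 (3.47-fold) and MRPS22 (3.41-fold). In that list 3.46-fold is the 90th percentile and 4.39-fold the 99th. The first 4 of these, 5.13% of members, were at or above the 90th percentile, where 11.6% of all genes were. For H3K4me3 no member was, where 5.59% of all genes were. No member reached the 99th percentile in the sgNpm1A lists, where 1.03% of all genes did for H3K27Ac and 0.617% for H3K4me3. MRPS22, a small subunit protein without a bacterial counterpart, had 5 promoter peaks in the sgNpm1A H3K27Ac list. The highest lay 337468 bp from its canonical start, at an alternative start, and its sgNeg peak of 4.48-fold lay on the canonical start.

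The 6 members with an sgNpm1A H3K4me3 peak were MRPL9, MRPL23, MRPL38, MRPL58, MRPS7 and MRPS22. Their peaks rested on 12 to 15 fragments at the summit, recovered from the fold enrichment, where the lowest peak of that list has 10. The same genes had 29 to 65 fragments at their sgNeg summits. MRPL38, of the central protuberance, had the highest, 4.07-fold and 907 bp against 13.73-fold and 930 bp in sgNeg, but it lay 3043 bp from the canonical start. MRPS7 alone had one within 1 kb of its canonical start, 556 bp away, with 12 fragments and 3.31-fold against 57 fragments and 12.06-fold in sgNeg. Within the list the 6 peaks ranked from the 34.8th to the 78.74th percentile. Of the 6, 1 overlapped the sgNeg peak of the same gene, that of MRPS7.

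The subunits were alike in their sgNeg medians. In sgNeg the median H3K27Ac percentile was 97.9 in both large and small subunit genes, and the median H3K4me3 percentile was 98.5 in both. At or above the 99th H3K4me3 percentile were 43.1% of large and 29.6% of small subunit genes. An sgNeg H3K4me3 peak was present at 48 of 51 large and 27 of 27 small subunit genes. It was present at 48 of 48 members listed with a bacterial homologue and 27 of 30 mitochondria-specific members. In sgNpm1A an H3K27Ac peak was present at 20 of 51 large (39.2%, 27 to 52.9) and 14 of 27 small subunit genes (51.9%, 34 to 69.3), and the intervals overlap. Of 48 members listed as having a bacterial homologue, 22 had one (45.8%, 32.6 to 59.7), as had 12 of 30 mitochondria-specific members (40%, 24.6 to 57.7). MRPL55 was counted with the former by the list used, although it is usually taken as mitochondria-specific.

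A shared promoter, with another protein-coding gene starting on the opposite strand within 1 kb upstream, was found at 26 members. They had wider H3K27Ac peaks in sgNeg, with a median of 2543 bp against 1794 bp in the other 52. For H3K4me3 the medians were 744 and 838 bp, in the opposite order. MRPS11 and MRPL46, which encode a small and a large subunit protein, start 320 bp apart and share 1 peak in sgNeg, of 2149 bp and 4.78-fold for H3K27Ac and 688 bp and 6.86-fold for H3K4me3. These 2 genes are therefore not independent members.

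The wider apparatus of mitochondrial translation was as highly occupied as the MRP genes in sgNeg. Of 57 genes of a list of ribosome-associated proteins, translation factors, tRNA synthetases and assembly and transcription factors, 57 had an H3K27Ac and 56 an H3K4me3 promoter peak in sgNeg, with median percentiles of 97.4 and 98.8. In sgNpm1A, 33 (57.9%, 45 to 69.8) and 8 (14%, 7.29 to 25.3) had one. DAP3, a GTP-binding protein of the small subunit with no MRPS symbol, had the highest H3K27Ac peak of these, 9.99-fold in sgNeg against 3.70-fold in sgNpm1A. TUFM, the elongation factor that brings tRNA to the mitochondrial ribosome, had a 12.69-fold H3K4me3 peak in sgNeg and none in sgNpm1A. Its H3K27Ac peak was 4.86-fold in sgNeg and 2.91-fold in sgNpm1A. TFAM, which packages mitochondrial DNA and takes part in starting its transcription, had peaks of 4.97-fold and 5.82-fold in sgNeg and none in sgNpm1A. CARS2 and TARS2, a pair of mitochondrial tRNA synthetases, differed from all MRP genes in having sgNpm1A H3K4me3 peaks above the 90th percentile, at 98.3 and 96.25. These 2 are 3.51% of the list, which is below the 5.59% of all genes at or above that percentile. By percentile, the H3K27Ac peak was higher in sgNpm1A at 4 of the 57, CARS2, MTERF3, HARS2 and SARS2. Over all genes with a sgNeg peak this held at 2703 of 15551.

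Peaks were unevenly spread over the chromosomes. On the 5 chromosomes with most H3K27Ac peaks per Mb in the sgNpm1A list, 16 of 28 members had an H3K27Ac promoter peak (57.1%), against 18 of 50 on the other 17 autosomes (36%). All genes gave 70.1% and 55.9%. The members did not follow density on each chromosome, since chromosome 7, with 146 peaks per Mb, had 0 of 4. For H3K4me3 the members gave 4 of 28 (14.3%) and 2 of 50 (4%), and all genes gave 36% and 21.4%. Of those 4, 3 lie on chromosome 17, and chromosomes 8, 5 and 7 had 0 of 3, 0 of 5 and 0 of 4. Shares of all genes on single chromosomes were not computed. In sgNeg H3K27Ac, divided by the density of its own peaks, the members gave 96.4% and 100%, and all genes gave 85.9% and 80%.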

How the data were processed

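The cell line is as the labels give it, and that of the H3K27Ac lists was not settled here. Peak lists of 1 library per guide RNA and mark were used as deposited, with peaks called by the authors in each library separately. The submitters' processing notes name bcl2fastq 2.17, Trimmomatic 0.33, Bowtie 1.1.2, MACS2 2.1.0, deepTools and hg38. The threshold, the use of the inputs and any correction of Tn5 cut positions were not given in the sources used here. As fold enrichment the authors deposited a ratio of pileup over background, at the summit for H3K4me3 (narrow peaks) and as a mean over the region for H3K27Ac (broad peaks). Each peak also has a deposited −log10 p-value and, beside it, a −log10 q-value, and the deposited score, a rescaled q-value, was not used. Total reads are not known from these lists. For H3K4me3, (pileup + 1)/(background + 1) with a background of 3.81 fragments in sgNeg and 2.93 in sgNpm1A gave whole pileups for 100% of peaks within 0.02.

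The notes name hg38 alone, but H3K27Ac peaks end at 249218478 on chromosome 1, past its end in hg38, and H3K4me3 peaks end at 83201881 on chromosome 17, past its end in hg19. Transcript starts came from GENCODE 44 mapped to GRCh37, whose records also hold the original GRCh38 positions, so the same starts served both marks and no coordinate was converted. A further 251 genes without a GRCh38 start were left out. A peak counted with 1 bp of overlap. The MRP members and the gene lists were chosen with earlier results of these data known. Named members were the 5 highest, 5 lowest and 5 widest per mark in sgNeg, those without a sgNeg peak, the 5 highest in sgNpm1A H3K27Ac, all with an sgNpm1A H3K4me3 peak, and a panel of 8 genes of known role. MRPS14, MRPL52, the sharing pair MRPS11 and MRPL46, and the genes named from the translation list were chosen after their values were seen. Python 3.11.15, pandas 2.3.3 and scipy 1.17.1 were used. Overlaps were checked on simulated data and against bedtools 2.31.1. Copies of the 1 kb on either side of each canonical start, over at least 100 bp, were sought with minimap2 2.31-r1302 in GRCh37.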

Additional observations from a re-analysis of the deposited data

How the results depend on the processing

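No paired analysis was possible because each guide RNA and mark has 1 library and the labels carry no replicate numbers. Of 93 values recomputed under other settings, 75 stayed close to the reported one and 18 moved. Under all 14 combinations of mark and setting, the reported one included, fewer MRP genes had a promoter peak in sgNpm1A than in sgNeg. All genes fell as well where they were counted. Under 1e-05 they went from 37.2% to 0.933% for H3K27Ac and from 60.5% to 5.59% for H3K4me3. With the canonical start they went from 73.9% to 34.1% and from 68.9% to 7.98%. The remaining settings were recomputed for members alone, so this direction is not a result about members. The number of MRP genes with an H3K27Ac peak in sgNeg was 51 at a q-value under 1e-05. In sgNpm1A it was 12 at a q-value under 0.01, 0 under 1e-05, 1 among the 20000 peaks of lowest p-value (of 4794 bp) and 11 where a peak had to cover a start. For H3K4me3, covering a start gave 40 genes in sgNeg, with a median percentile of 80, and 2 in sgNpm1A. The sgNpm1A H3K4me3 number was also 0 under 1e-05, 0 among the 20000 peaks, 2 with the start of the gene record and 1 with the canonical start, a setting added after the data were seen. Loss of H3K27Ac was counted at 65 genes under 0.01 and 69 among the 20000 peaks, and loss of H3K4me3 at 38 where a peak had to cover a start. Over genes with a peak only, the sgNpm1A median percentiles were 42.8 for H3K27Ac and 43.9 for H3K4me3. Stricter limits leave fewer peaks by construction, and the H3K4me3 peaks begin downstream of most starts. Widths could not be computed under 1e-05 in sgNpm1A, nor among the 20000 peaks for H3K4me3. With 1 library per group, a difference between guide RNAs and one between library preparations cannot be told apart. Whether the H3K27Ac libraries come from the labelled line was not settled.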

Other observations

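The number of MRP genes with a promoter peak in the sgNpm1A H3K27Ac list differed between chromosomes. On chromosome 1, 7 of 8 members had a promoter peak, and on chromosome 6, 0 of 6 did. On chromosome 7, 0 of 4 did. The list held 162, 83.1 and 146 peaks per Mb on these chromosomes. In sgNeg, all members of chromosomes 1 and 6 had one. The shares of all genes on these single chromosomes were not computed, so these small counts are not read as a result about MRP genes. The RefSeq start of MRPL34 lies 13299 bp from its canonical start, and its sgNeg H3K27Ac peak is 843 bp wide.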
